A study of Mus musculus with 46 samples.

Results

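The comparison described here sets the liver of pregnant mice treated with a micro ZnO sunscreen against the liver of untreated pregnant mice. It rests on 10 of the 46 arrays of the study, 5 from pregnant micro ZnO mice and 5 from pregnant untreated mice, chosen by their labels alone. Each array measured liver RNA from 1 SKH:QS mouse, a hairless laboratory stock, and the labels call the arrays biological replicates. The micro ZnO mice were at about day 17 of gestation and had sunscreen with microparticles of zinc oxide, made with the stable isotope 68Zn, applied to the back 6 times over 4 days before the liver was taken on day 5. Also measured at the same stage of gestation were 6 mice given a sunscreen with 68ZnO nanoparticles (nano ZnO), 6 mice given the sunscreen base without particles (formulation) and the 5 untreated mice. A separate experiment on virgin mice gave 6 arrays of micro ZnO and 6 arrays of untreated liver that are used below. Its 6 formulation and 6 nano ZnO arrays enter only the joint fit of pregnant and virgin mice, where they share in the estimate of the spread. Every sunscreen group of both experiments had 6 applications over 4 days, and all livers were taken on day 5. The collars against licking, the single housing and the anaesthetic injection stand in the protocol of every group. Whether the untreated mice were collared or handled in the same way is not spelled out.

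The liver answers inflammation anywhere in the body by changing the plasma proteins that its hepatocytes secrete, which is known as the acute-phase response. Interleukin-6 acts through STAT3 and interleukin-1 acts through NF-kB and C/EBP factors, and together they drive the serum amyloid A and orosomucoid genes, haptoglobin and hemopexin. Zinc that enters a hepatocyte is sensed by the factor MTF1, which raises the metallothionein genes Mt1 and Mt2 and the exporter gene Slc30a1, while inflammation raises the importer gene Slc39a14. Kupffer cells, the macrophages resident in liver, and recruited neutrophils add transcripts of their own to a sample of whole liver.

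The values are log2 intensities, so a difference of 1 is a 2-fold difference in signal. The 4 pregnant groups were fitted together with limma, and calls were made at 0.05 after Benjamini-Hochberg adjustment of p over the 23410 probe sets with a gene symbol. Log2 changes are followed by ± SE, and levels by ± SD where so named. The 5 micro ZnO arrays were not alike. Replicates 3 and 4 had 634 and 299 genes at least 2-fold away from the untreated mean, against 39, 23 and 50 genes in micro ZnO replicates 1, 2 and 5. The untreated arrays, each set against the mean of the other untreated arrays, had 26 to 43 such genes. For named genes, calls of micro ZnO minus untreated that ended without replicates 3 and 4 are therefore given with and without them. The interquartile range of an array averaged 3.04 ± 0.09 in micro ZnO and 3.07 ± 0.04 in untreated mice (SD, n = 5 each). An exact two-sided permutation test of the difference of -0.028 gave p = 0.524, where the smallest possible p is 0.00794. The range was 2.93 and 2.96 in micro ZnO replicates 3 and 4. It was 3.08 to 3.13 in the other micro ZnO arrays and 3.05 to 3.13 in untreated arrays. Nano ZnO arrays ran from 2.88 to 3.15 and formulation arrays from 2.84 to 3.04. The part of this range in the spread of the micro ZnO arrays was not tested. The 11 measured hepatocyte markers, albumin among them, had a median change of 0.03, and their mean level ran from 11.85 to 11.97 in micro ZnO and from 11.80 to 11.92 in untreated liver, as the tissue label says.

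The sequences shown first belong to the 4 genes with the largest called changes that also kept their call under every processing alternative and under every array left out, namely Saa1, Saa2, Saa3 and Orm2. Each is the stretch of 250 bases that ends just before the start site of the gene, written 5′ to 3′ on the strand of the gene, from RefSeq on GRCm38.p6. They lie at chr7:46742981-46743230 on the minus strand for Saa1, chr7:46751583-46751832 on the plus strand for Saa2, chr7:46715677-46715926 on the minus strand for Saa3 and chr4:63362199-63362448 on the plus strand for Orm2. Capitals mark a match on either strand to the C/EBP motif TTGCNNAA or, in Saa3, also to the NF-kB motif GGNNTTTCC.
Saa1: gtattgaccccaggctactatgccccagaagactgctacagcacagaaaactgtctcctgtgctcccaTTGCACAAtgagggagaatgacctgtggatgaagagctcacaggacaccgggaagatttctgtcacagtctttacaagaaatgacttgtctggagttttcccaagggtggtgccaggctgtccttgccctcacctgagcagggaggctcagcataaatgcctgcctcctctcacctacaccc
Saa2: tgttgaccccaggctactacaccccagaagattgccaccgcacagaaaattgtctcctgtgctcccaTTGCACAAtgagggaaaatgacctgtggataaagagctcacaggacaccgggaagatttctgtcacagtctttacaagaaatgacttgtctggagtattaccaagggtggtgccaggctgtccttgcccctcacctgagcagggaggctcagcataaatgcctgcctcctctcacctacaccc
Saa3: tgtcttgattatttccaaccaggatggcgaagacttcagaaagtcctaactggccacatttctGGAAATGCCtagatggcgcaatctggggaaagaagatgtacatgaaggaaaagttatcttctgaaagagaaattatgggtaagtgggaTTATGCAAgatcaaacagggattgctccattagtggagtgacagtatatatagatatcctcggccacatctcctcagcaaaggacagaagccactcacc
Orm2: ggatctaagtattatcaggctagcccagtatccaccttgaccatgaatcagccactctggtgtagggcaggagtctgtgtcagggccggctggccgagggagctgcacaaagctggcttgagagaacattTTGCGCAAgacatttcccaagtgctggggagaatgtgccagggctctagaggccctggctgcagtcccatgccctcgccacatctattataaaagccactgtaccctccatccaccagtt

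Every one of the 4 windows held 1 match to the C/EBP motif, at positions -182 to -175 before the start site in Saa1, -183 to -176 in Saa2, -99 to -92 in Saa3 and -120 to -113 in Orm2. Of all 32851 promoter windows of this length, 9.56% held a match. The NF-kB motif matched once, in Saa3 at -187 to -179, and in 4.93% of all windows. With a further leading G it matched in 0 of the 4 windows and in 1.41% of all windows. The STAT motif TTCNNNGAA matched in none of the 4 and in 7.02% of all windows. No 2 matches overlap in these windows, and a match is a description of the letters alone. The Saa1 and Saa2 windows were 94.8% identical over an alignment of 251 columns, while Saa1 and Saa3 shared 50.2% of 263 columns. Saa1 and Saa2 are near-identical copies and the orosomucoid genes are related to each other, so signal may cross between probe sets within each family. How alike the orosomucoid genes are was not measured.

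Secreted acute-phase proteins made up most of the rises in micro ZnO liver. The serum amyloid A genes Saa1, Saa2 and Saa3 rose most, followed by Orm2, and haptoglobin, hemopexin, serum amyloid P and Orm1 rose by less than 2-fold. Saa4, the serum amyloid A gene that liver expresses without inflammation, gave 1.29 ± 0.43 with overlapping groups and did not pass (limma adjusted p = 0.299). Of 23410 probe sets, 25 were called (0.107%), of which 17 were higher in micro ZnO (0.0726%) and 8 lower (0.0342%). At 1 probe set per gene, 16 of 19938 genes were higher (0.0802%) and 2 were lower (0.01%), and the median change of all genes was 0.004. Of 31 measured acute-phase genes, 10 were higher, 0 were lower and 21 did not pass, with a median change of 0.66. All 5 micro ZnO arrays lay above all 5 untreated arrays for 13 of the 31, as they did for 0.802% of all genes. Without micro ZnO replicates 3 and 4, 5 of the 31 were called, where 7 of all 23410 probe sets were called. In a fit of the compared groups alone 5 were called, where 8 of all probe sets were called.

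Saa3, a serum amyloid A made by macrophages and other cells as well as by inflamed liver, read 9.25, 9.43, 12.47, 12.96 and 8.45 in micro ZnO livers, against 5.21, 5.39, 4.86, 5.07 and 5.26 in untreated livers. The lowest micro ZnO array stood well above the highest untreated array, and replicates 3 and 4 stood above the other micro ZnO arrays by over 3 units. Its log2 change was 5.36 ± 0.62 (41.0-fold, limma adjusted p = 3.49e-05), and it was 3.89 ± 0.40 without replicates 3 and 4 (adjusted p = 1.35e-05).

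Saa1, which encodes a major circulating serum amyloid A, read 10.42, 10.55, 11.90, 12.32 and 10.11 in micro ZnO livers, against 6.74, 7.01, 7.07, 5.2 and 6.95 in untreated livers. The groups did not overlap, and untreated replicate 4 was low. Its log2 change of 4.46 ± 0.42 (22.1-fold, limma adjusted p = 1.47e-06) became 3.76 ± 0.40 without micro ZnO replicates 3 and 4. Saa2, its close copy, averaged 12.01 ± 1.06 in micro ZnO and 8.02 ± 0.69 in untreated livers (SD, n = 5 each), a log2 change of 3.99 ± 0.42 (15.9-fold, limma adjusted p = 9.08e-06).

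The orosomucoids are abundant plasma glycoproteins that bind basic and neutral ligands. Orm2 read 10.96, 11.21, 11.48, 11.89 and 11.08 in micro ZnO livers, against 8.08, 9.09, 7.62, 8.13 and 7.92 in untreated livers. All micro ZnO arrays lay within 1 unit of each other. Orm2 had the smallest p of all probe sets, with a log2 change of 3.16 ± 0.20 (8.93-fold, limma adjusted p = 1.13e-09). Orm1 started from a higher signal and changed by 0.92 ± 0.10 (1.89-fold, adjusted p = 2.5e-05), and the limma fit without micro ZnO replicates 3 and 4 gave 0.82 ± 0.12. Orm3 changed by 1.64 ± 0.28 (limma adjusted p = 0.00932), and by 1.31 ± 0.30 without these replicates (adjusted p = 0.244).

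**Figure D1:**
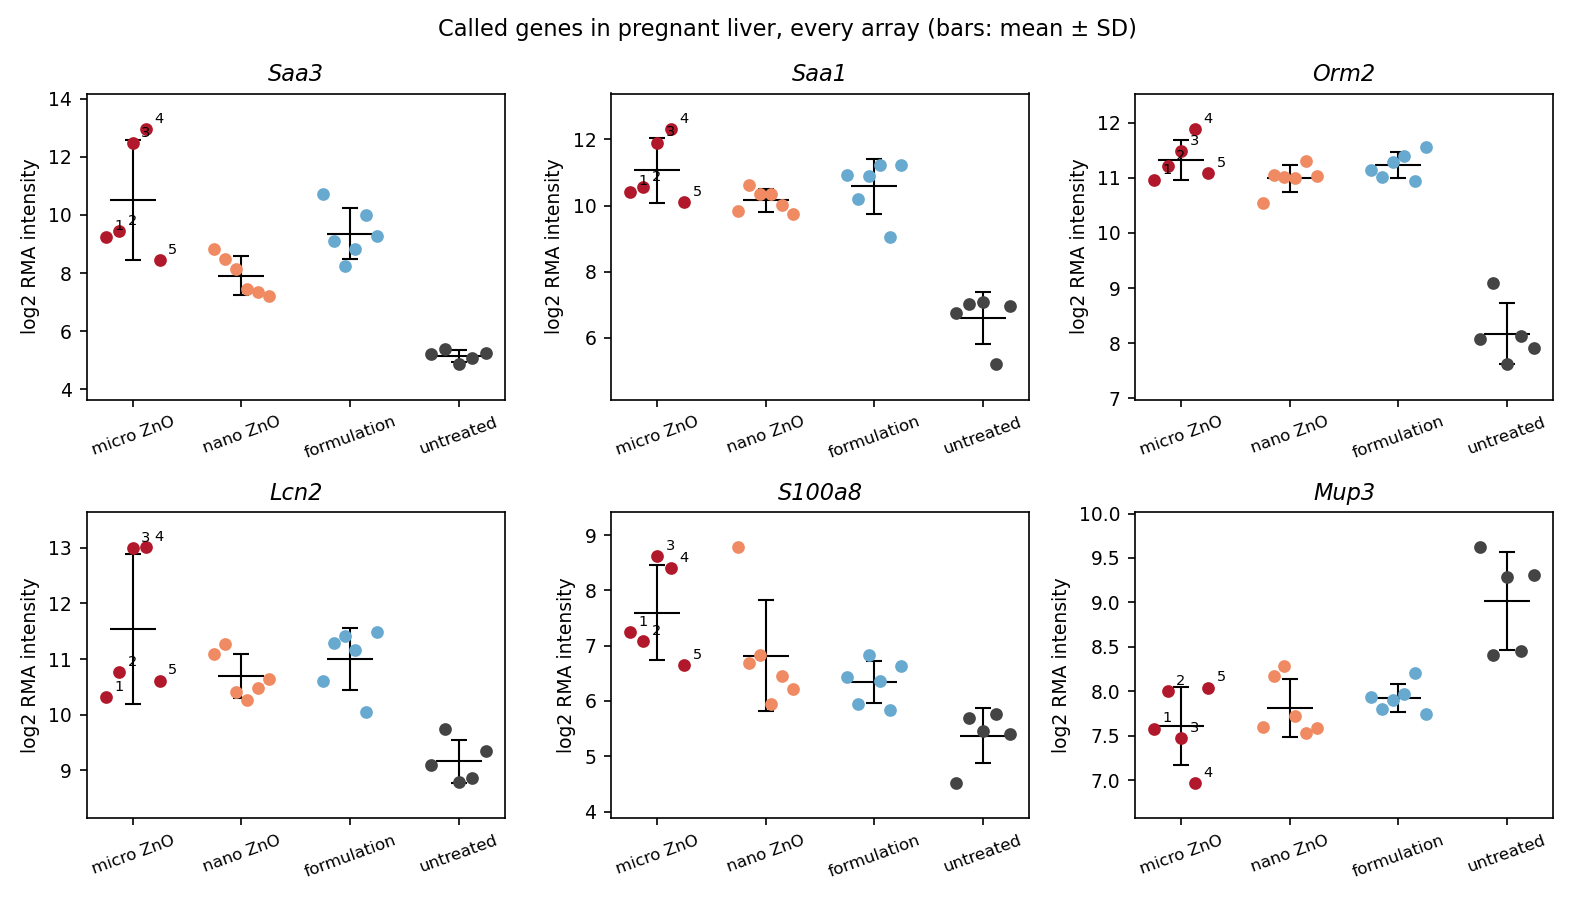
Log2 RMA intensity (y axis) of 6 called genes in every pregnant array, with the groups micro ZnO, nano ZnO, formulation and untreated from left to right. Points are mice, numbers beside the micro ZnO points are replicate numbers, and bars give the mean ± SD. Saa3, Saa1 and Orm2 lie higher in all 5 micro ZnO arrays than in any untreated array, and Mup3 lies lower.

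Further plasma proteins and binding proteins rose by less. Hp, which encodes haptoglobin, the scavenger of free hemoglobin, averaged 12.90 ± 0.26 in micro ZnO and 12.16 ± 0.11 in untreated livers (SD, n = 5 each), a change of 0.73 ± 0.11 (limma adjusted p = 0.00297). Hpx, which encodes the heme scavenger hemopexin, changed by 0.43 ± 0.08 (adjusted p = 0.0192 in limma), and Apcs, which encodes serum amyloid P, by 0.63 ± 0.13 (adjusted p = 0.0453). In Apcs the groups overlapped, at 11.04 to 11.74 in micro ZnO and 10.40 to 11.09 in untreated livers. Lcn2, which encodes the siderophore-binding lipocalin 2, read 10.32, 10.76 and 10.61 in micro ZnO replicates 1, 2 and 5 and up to 13.01 in replicates 3 and 4, against 9.09, 9.74, 8.79, 8.85 and 9.34 in untreated livers. Every micro ZnO array was higher, but replicates 3 and 4 stood apart by over 2 units. Lcn2 changed by 2.38 ± 0.42 (5.21-fold, limma adjusted p = 0.0125), against 1.40 ± 0.27 without these replicates, where it no longer passed (adjusted p = 0.0758). Without them Hp gave 0.54 ± 0.11, Hpx 0.32 ± 0.08 and Apcs 0.47 ± 0.13. The limma adjusted p was 0.0758 for Hp, 0.509 for Hpx and 0.624 for Apcs, so these calls also ended. Of 26 genes for iron and heme handling, Hp and Hpx were the 2 called, against 0.0802% of all genes called as higher, and the median of the list was 0.03. None of the 26 was called without micro ZnO replicates 3 and 4 or in a fit of the compared groups alone. In these fits 7 and 8 of all 23410 probe sets were called. The fibrinogen genes Fga, Fgb and Fgg, which are acute-phase genes too, gave 0.12, 0.11 and 0.17, none of which passed.

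Further called genes were transcripts that neutrophils and other myeloid cells carry in quantity. S100a8 and S100a9 encode the subunits of calprotectin, a protein that sequesters zinc and manganese at sites of inflammation. S100a8 read 7.24, 7.08, 8.62, 8.40 and 6.65 in micro ZnO livers, against 4.52, 5.70, 5.45, 5.77 and 5.41 in untreated livers, and S100a9 ran from 7.19 to 8.88 in micro ZnO and from 5.65 to 6.35 in untreated livers. Both had every micro ZnO array above every untreated one. The log2 changes were 2.23 ± 0.41 for S100a8 (4.69-fold, limma adjusted p = 0.0192) and 1.94 ± 0.36 for S100a9 (3.84-fold, adjusted p = 0.0224). Retnlg, a resistin-like secreted protein of myeloid cells, changed by 1.32 ± 0.21 (limma adjusted p = 0.00591), and Ifitm6, of the interferon-induced transmembrane family, by 1.68 ± 0.33 (adjusted p = 0.0442). Without micro ZnO replicates 3 and 4 the changes were 1.62 ± 0.41, 1.41 ± 0.36, 0.99 ± 0.21 and 1.02 ± 0.28 for S100a8, S100a9, Retnlg and Ifitm6, with adjusted p of 0.45, 0.505, 0.172 and 0.574 in limma, so none passed.

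Of 14 neutrophil markers, S100a8, S100a9 and Retnlg were the 3 called as higher, against 0.0802% of all genes, all 14 had a positive sign, and the median change was 0.96. All micro ZnO arrays lay above all untreated arrays for 7 of the 14, against 0.802% of all genes. Without micro ZnO replicates 3 and 4, 0 of the 14 were called, where 7 of all 23410 probe sets were called. The mean level of the list ran from 4.77 to 5.96 in micro ZnO and from 4.08 to 4.41 in untreated livers. Its mean above the untreated mean was 0.85, 0.63, 1.66, 1.57 and 0.47 in micro ZnO replicates 1 to 5, and nano ZnO replicate 1 reached 1.79. Ly6g, the surface antigen that defines mouse neutrophils, stood at 2.94 to 4.07 in micro ZnO and 2.31 to 2.99 in untreated livers, near the low end of the scale, and gave 0.80 ± 0.24 (limma adjusted p = 0.244). The collagenase gene Mmp8 gave 1.31 ± 0.29 (adjusted p = 0.0705 in limma), the granule gene Ngp 1.53 ± 0.44 (adjusted p = 0.222) and the integrin gene Itgam 1.13 ± 0.30 (adjusted p = 0.16). Mmp8 passed without micro ZnO replicate 2 (limma adjusted p = 0.0185) or replicate 5 (adjusted p = 0.00524), and Itgam without replicate 5 (adjusted p = 0.0447). Without replicates 3 and 4 Mmp8 gave 0.64, Ngp 1.00 and Itgam 0.41, and none passed. In whole liver, more cells of a type and more RNA per cell cannot be told apart. The part of neutrophil RNA in the rise of Lcn2, which is itself abundant in neutrophils, was not tested.

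The other called genes belong to neither group. Sult1e1, the estrogen sulfotransferase that inactivates estrogens and is female-biased in liver, read 7.11, 8.27, 8.60, 6.95 and 6.52 in micro ZnO livers, against 3.51, 6.75, 4.36, 4.18 and 3.20 in untreated livers. Untreated replicate 2 overlapped the lower end of the micro ZnO values. The change was 3.09 ± 0.56 (8.52-fold, limma adjusted p = 0.0192), and without micro ZnO replicates 3 and 4 it was 2.90 ± 0.63 (adjusted p = 0.184). Hivep2, a zinc finger factor that binds sites like those of NF-kB, read 4.83, 5.10, 5.38, 5.24 and 5.09 in micro ZnO livers, against 4.2, 4.27, 3.89, 4.2 and 4.39 in untreated livers. The groups did not overlap, and the change was 0.94 ± 0.14 (1.91-fold, limma adjusted p = 0.00177). Without micro ZnO replicates 3 and 4 Hivep2 gave 0.82 ± 0.15 and did not pass (adjusted p = 0.0639 in limma).

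Mup3, of the major urinary proteins that liver secretes and growth hormone pulses favour, read 7.58, 8.0, 7.47, 6.97 and 8.04 in micro ZnO livers, against 9.62, 8.41, 9.29, 8.45 and 9.31 in untreated livers. All 5 micro ZnO arrays were lower, with a change of -1.40 ± 0.22 (limma adjusted p = 0.00297), and of -1.14 ± 0.22 without replicates 3 and 4 (adjusted p = 0.0758). The Mup genes are near-identical copies, so other members may add to this signal. Arhgap29 fell by 0.59 on the log2 scale (SE 0.12, limma adjusted p = 0.0451) and gave -0.44 ± 0.12 without these replicates (adjusted p = 0.574). Of 17 female-biased liver genes Sult1e1 alone was called, against 0.0802% of all genes called as higher. Of 18 male-biased genes Mup3 alone was called, against 0.01% of all genes called as lower. The list medians were -0.06 and -0.18. In either list 0 members were called without micro ZnO replicates 3 and 4 or in a fit of the compared groups alone. Of all 23410 probe sets, 7 and 8 were called in these fits. Slco1a1, a male-biased uptake transporter for organic anions, read 5.02, 4.19, 3.1, 2.47 and 5.22 in micro ZnO livers, against 7.45, 5.98, 6.06, 5.28 and 6.33 in untreated livers. All micro ZnO arrays were lower, yet the change of -2.22 ± 0.58 did not pass (limma adjusted p = 0.158), and Slco1a1 gave -1.41 ± 0.59 without replicates 3 and 4.

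The remaining calls were 7 probe sets that carry several gene symbols each, and their genes are not named. One of them was higher in micro ZnO, at a mean of 5.37 in micro ZnO and 2.96 in untreated livers. The other 6 were lower, by -0.50 to -1.14, at mean signals of at most 3.66 in micro ZnO and 4.30 in untreated livers. Leaving out arrays moved the number of calls widely. It was 7 without micro ZnO replicates 3 and 4, all higher, with Saa1, Saa2, Saa3, Orm1 and Orm2 among them. It was 138 without micro ZnO replicate 2, of which 48 were higher and 90 lower, and 46 without untreated replicate 2.

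Genes that respond to zinc were followed because zinc is what the particles contain. None of the 12 metallothionein and zinc exporter genes and none of the 13 zinc importer genes was called, and their medians were 0.04 and -0.07. Of all genes, 0.0802% were called as higher and 0.01% as lower, so short lists would hold few or no calls. Mt1, a metallothionein that binds zinc, read 12.17, 12.19, 12.49, 12.29 and 12.06 in micro ZnO livers, against 11.38, 12.17, 11.89, 11.30 and 11.88 in untreated livers. The untreated arrays were more scattered and untreated replicate 2 overlapped the micro ZnO values. The log2 change of Mt1 was 0.52 ± 0.13 (limma adjusted p = 0.136) and that of Mt2 0.80 ± 0.19 (adjusted p = 0.0965). Without untreated replicate 2, Mt1 passed at 0.63 (limma adjusted p = 0.0288) and Mt2 at 0.96 (adjusted p = 0.0241). Without micro ZnO replicates 3 and 4 Mt1 gave 0.42 and Mt2 0.60, and neither passed. Against formulation, which lacks the particles, the differences were 0.00 for Mt1 (95% interval -0.25 to 0.26) and 0.04 for Mt2 (-0.33 to 0.42).

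Slc30a1, the exporter gene that MTF1 controls, gave 0.15 ± 0.14 (limma adjusted p = 0.82), and Slc30a10, which exports manganese, gave -0.64 ± 0.26 (adjusted p = 0.442). Slc39a4, the zinc importer best known from gut, gave -0.27 ± 0.13 (limma adjusted p = 0.543). Slc39a14, the importer induced in inflamed liver, gave 0.68 ± 0.22 (adjusted p = 0.297 in limma), with 9.76, 9.51, 10.31, 9.98 and 9.64 in micro ZnO livers, against 9.16, 9.45, 8.40, 9.06 and 9.71 in untreated livers. Untreated replicate 5 lay above the lowest micro ZnO arrays, and the other untreated arrays lay below all of them.

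The 5 micro ZnO arrays differed from each other more than the untreated arrays did. The SD over a group passed 1 log2 unit for 108 genes in micro ZnO, 29 in nano ZnO, 4 in formulation and 12 in untreated livers, and the median SD of a gene was 0.174 in micro ZnO, 0.174 in nano ZnO, 0.156 in formulation and 0.151 in untreated livers. The SD was larger in micro ZnO than in untreated livers for 60.5% of the genes. Of the 108 genes, the highest of the 5 arrays was replicate 3 for 60 and replicate 4 for 18. Both of these replicates stood at least 1 unit above each of the other 20 pregnant arrays for 45 genes, and at least 0.5 below each of them for 10 genes. Correlations between micro ZnO arrays over all genes ran from 0.977 to 0.993, against 0.991 to 0.993 between untreated arrays. The labels give nothing that sets replicates 3 and 4 apart, and these 2 mice are not a group of the study, so no test was made between them and the others.

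**Figure D2:**
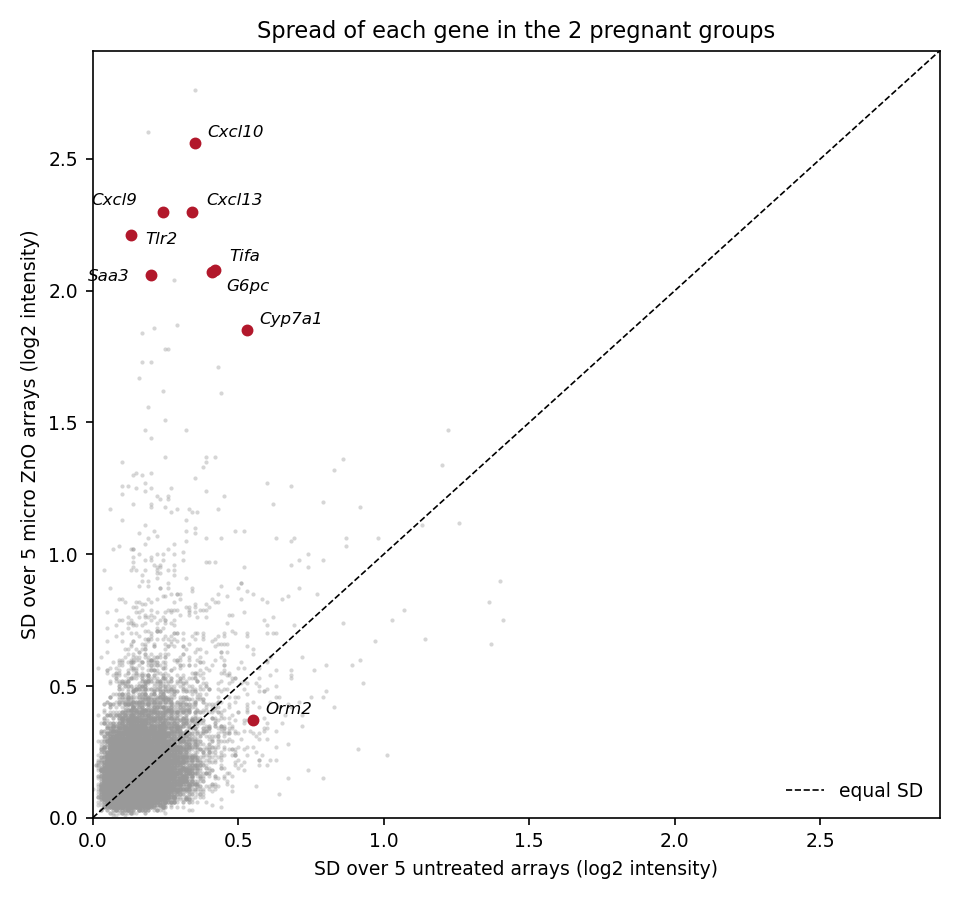
SD of each gene over the 5 micro ZnO arrays (y axis) against its SD over the 5 untreated arrays (x axis), both in log2 units, with 1 point per gene. Chemokine and innate immune genes such as Cxcl10 (2.56 in micro ZnO and 0.35 in untreated) lie far above the dashed line of equal SD, while Orm2 lies below it.

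Genes of several roles had a wide spread. Cxcl10, an interferon-induced chemokine for T cells, read 4.77, 4.56, 10.65, 6.36 and 4.88 in micro ZnO livers, against 4.53, 4.94, 4.58, 4.50 and 5.31 in untreated livers. Replicate 3 was far above every other array, replicate 4 was moderately high, and the other 3 lay among the untreated values. Cxcl9, a chemokine of the same receptor, read 4.69, 5.18, 9.88, 8.45 and 5.43 in micro ZnO livers, against 4.59 to 5.10 in untreated livers. Tlr2, the receptor for bacterial lipoproteins, read 4.95, 5.08, 9.60, 8.36 and 5.02 in micro ZnO livers, against 4.67 to 5.04 in untreated livers. Here too replicates 3 and 4 alone stood out.

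The B cell chemokine gene Cxcl13 reached 8.54 and 9.42 in replicates 3 and 4, against at most 5.10 in the other micro ZnO arrays and 5.02 in untreated arrays. Tifa, an adaptor that activates NF-kB, reached 11.03 and 9.47, against at most 6.98 and 6.75. Il1rn, which encodes the interleukin-1 receptor antagonist, reached 7.97 and 7.66, and Marco, a scavenger receptor of macrophages, 8.69 and 8.31. Rnd1, a small GTPase, reached 9.58 and 7.38 in the same arrays. Chosen after their values were seen, Cd14, the co-receptor for endotoxin, read 3.90, 4.13, 9.28, 8.09 and 4.00, Il1b, the cytokine gene, 3.47, 3.85, 6.87, 6.51 and 3.66, and Chil1, a chitinase-like protein, 4.04, 4.07, 7.50, 8.03 and 4.08 in micro ZnO replicates 1 to 5. None of the genes of this paragraph passed, at limma adjusted p between 0.222 for Chil1 and 0.435 for Rnd1.

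**Figure D3:**
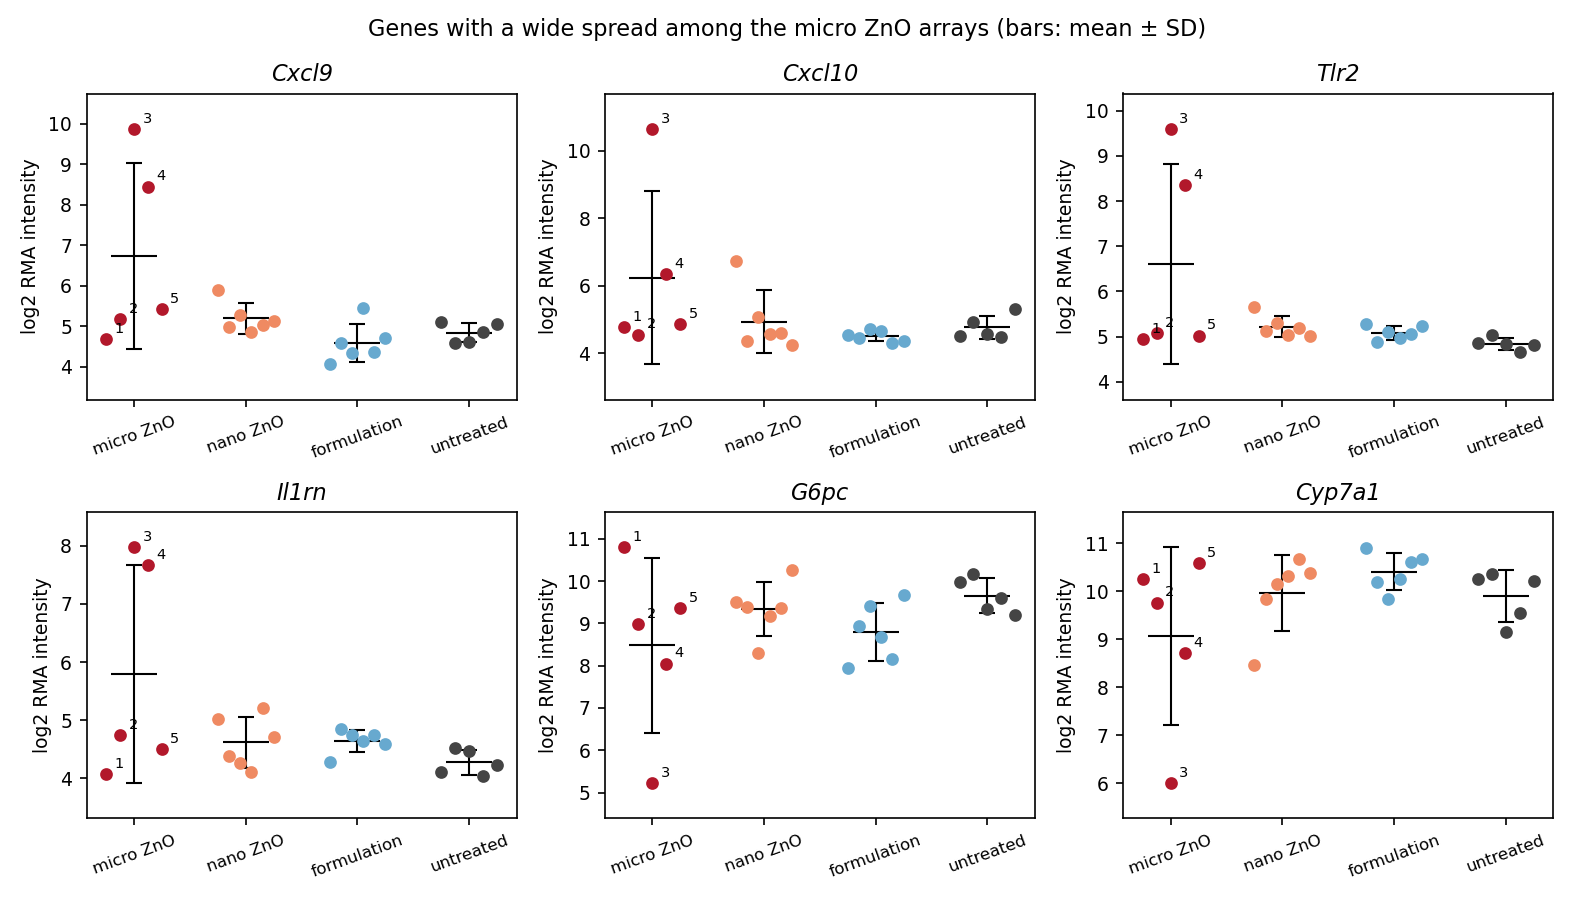
Log2 RMA intensity (y axis) of 6 genes with a wide spread among the micro ZnO arrays, in every pregnant array, with micro ZnO, nano ZnO, formulation and untreated from left to right and bars for mean ± SD. In Cxcl9, Tlr2 and Il1rn replicates 3 and 4 stand above all other arrays, and in G6pc replicate 3 at 5.23 and replicate 4 at 8.05 are the lowest micro ZnO values.

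Over the lists the same arrays stood apart, but not in the same way. The 29 chemokine and NF-kB feedback genes lay above the untreated mean by 0.01, 0.11, 1.59, 1.25 and 0.13 on average in micro ZnO replicates 1 to 5, while untreated arrays lay between -0.09 and 0.06. The 23 interferon-stimulated genes gave -0.14, -0.02, 1.90, 0.36 and -0.02, so this list was high in replicate 3 and much less so in replicate 4. Irf7, the interferon regulatory factor of that list, nevertheless reached 7.95 and 8.42 in replicates 3 and 4, against 6.01 to 6.13 in the other micro ZnO arrays and 5.79 to 6.37 in untreated arrays. The 31 acute-phase genes gave 0.69, 0.87, 2.02, 1.90 and 0.69. They were raised in all 5 arrays, and further in replicates 3 and 4. No member of the chemokine and interferon lists was called, and their medians were 0.54 and 0.28. Of all genes, 0.0802% were called as higher and 0.01% as lower, so lists of this size would hold few or no calls.

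Macrophage markers lay on both sides of the untreated values in replicate 3. The list of 15 Kupffer cell and macrophage markers gave 0.12, 0.07, 0.05, 0.74 and 0.18 in micro ZnO replicates 1 to 5. Its median was 0.21 and 0 members were called, against 0.0802% of all genes called as higher. Its mean level was 6.66 to 7.35 in micro ZnO and 6.43 to 6.72 in untreated livers. Adgre1, which encodes a surface receptor that marks macrophages and was chosen after its values were seen, reached 7.47 and 7.73 in replicates 3 and 4, against 5.73 to 5.89 in the other micro ZnO arrays and 5.42 to 5.88 in untreated arrays. Lyz2, the myeloid lysozyme gene, reached 9.14 and 8.61 there. Vsig4, a complement receptor of Kupffer cells, read 7.30, 7.40, 5.18, 6.95 and 7.35, lowest in replicate 3, and 6.90 to 7.34 in untreated livers. The 19 endothelial markers averaged -0.63 in replicate 3 and -0.13 to 0.00 in the other micro ZnO arrays, against -0.46 to -0.02 in nano ZnO, -0.51 to -0.06 in formulation and -0.13 to 0.16 in untreated arrays. Kdr, a receptor for vascular endothelial growth factor on these cells, read 4.98 in replicate 3, against 6.25 to 7.03 in the other micro ZnO arrays and 6.69 to 7.07 in untreated arrays.

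**Figure D4:**
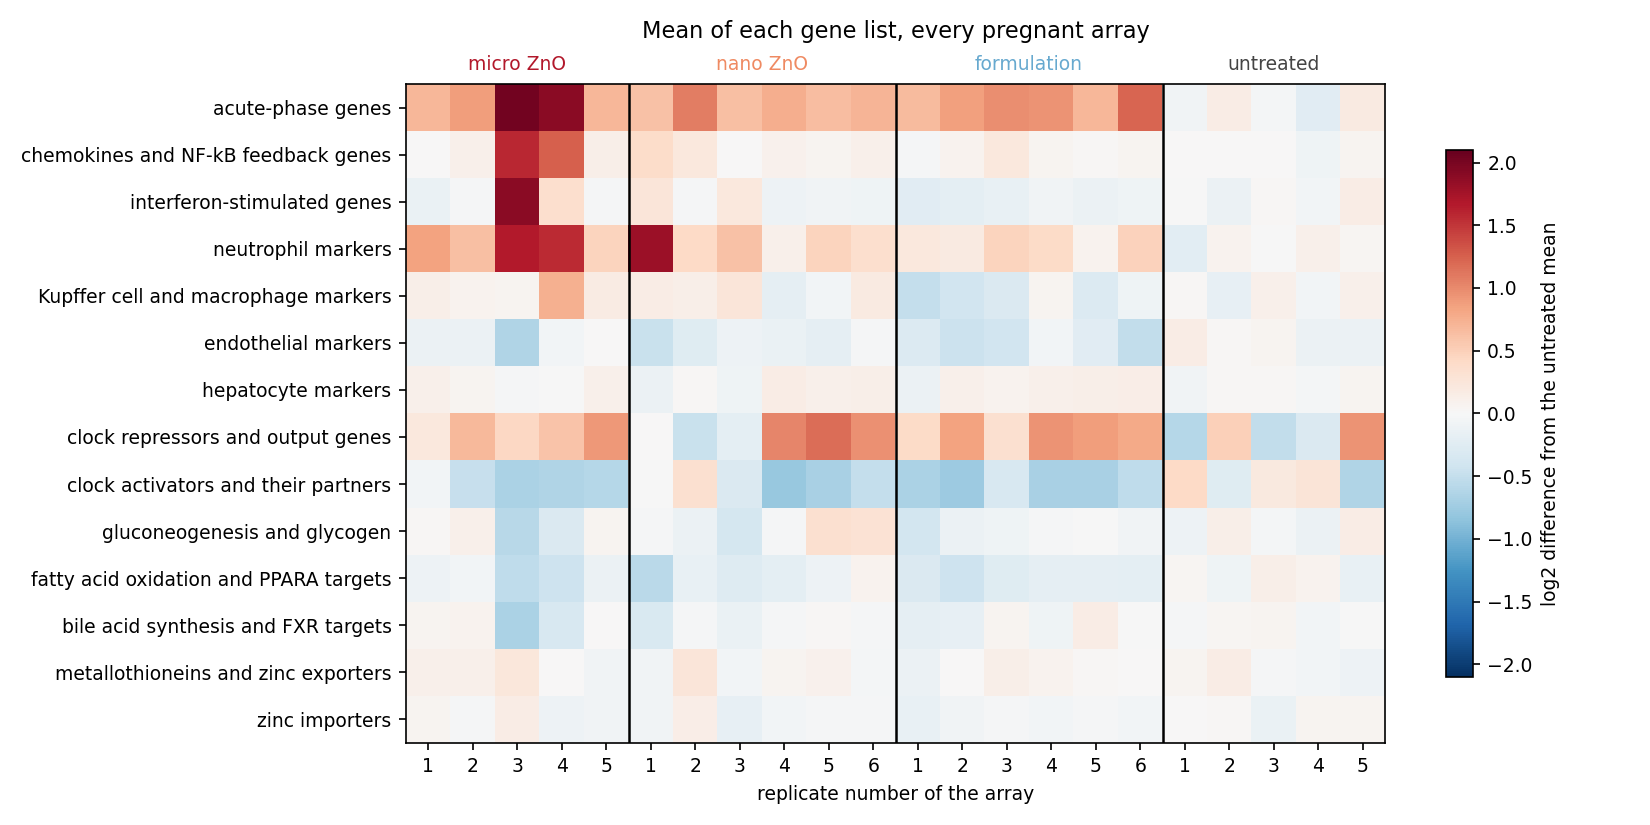
Mean log2 difference of 14 gene lists from the untreated mean (colour) in each of the 22 pregnant arrays (columns, by group and replicate number), with lists as rows. Acute-phase genes are raised in all 17 sunscreen arrays, while chemokine genes are high in micro ZnO replicates 3 and 4, and interferon-stimulated genes reach 1.90 in micro ZnO replicate 3.

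Some metabolic genes of hepatocytes were low in the same arrays, while the hepatocyte marker list lay at -0.03 and -0.01 from the untreated mean in replicates 3 and 4. G6pc, the phosphatase that releases glucose from hepatocytes, read 10.80, 8.98, 5.23, 8.05 and 9.36 in micro ZnO livers, against 9.98, 10.17, 9.33, 9.59 and 9.21 in untreated livers. Cyp7a1, the rate-limiting enzyme of bile acid synthesis, read 10.25, 9.76, 6.01, 8.71 and 10.59 in micro ZnO livers, against 10.26, 10.35, 9.14, 9.54 and 10.22 in untreated livers. In both genes replicate 3 was lowest, replicate 4 next lowest, and the group change did not pass (limma adjusted p of 0.585 for G6pc and 0.718 for Cyp7a1). Cyp8b1, which sets the share of cholic acid, read 7.84 and 8.77 in replicates 3 and 4, against 9.59 to 10.08 in the other micro ZnO arrays and 9.92 to 10.47 in untreated arrays. Hmox1, which encodes the heme-degrading enzyme heme oxygenase 1, was high there instead, at 8.39 and 8.42, against at most 6.66 in the other micro ZnO arrays and 6.38 in untreated arrays. Hmox1 passed without micro ZnO replicate 2 (1.29, limma adjusted p = 0.0464).

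Other metabolic genes had lower means in micro ZnO livers without passing the test. Ppp1r3c, a subunit that directs a phosphatase to glycogen, read 5.95, 5.92, 4.06, 4.09 and 4.57 in micro ZnO livers, against 7.47, 6.66, 6.83, 6.87 and 6.03 in untreated livers. All micro ZnO arrays were lower, but the change of -1.85 ± 0.39 missed the threshold (limma adjusted p = 0.0627). It passed when micro ZnO replicate 1 (adjusted p = 0.024) or replicate 2 (adjusted p = 0.00855) was left out of the limma fit. The 41 genes of fatty acid oxidation and PPARA targets had a median of -0.25 with 34 negative signs and 0 calls. The 24 genes of fatty acid synthesis had a median of -0.20 with 0 calls, where 0.01% of all genes were called as lower. Set against the same untreated arrays, these medians were -0.24 and -0.26 in nano ZnO and -0.25 and -0.30 in formulation livers. Pdk4, a kinase that blocks pyruvate oxidation, gave -0.76 ± 0.21 (limma adjusted p = 0.18), and the lipid droplet gene Plin2 gave -0.76 ± 0.20 (adjusted p = 0.174). Me1, the malic enzyme that makes NADPH, gave -0.63 ± 0.15 (limma adjusted p = 0.102), and Elovl5, a fatty acid elongase, -0.65 ± 0.15 (adjusted p = 0.0955). Both passed without micro ZnO replicate 2, at -0.75 each (limma adjusted p of 0.01 for Me1 and 0.0186 for Elovl5), and Me1 also without untreated replicate 2 (adjusted p = 0.0258).

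Clock genes varied widely among the untreated arrays, and no member of the clock lists was called. Dbp, a clock output factor, read 6.86, 7.62, 6.53, 7.30 and 8.23 in micro ZnO livers, against 5.32, 7.24, 4.98, 5.59 and 8.15 in untreated livers. Arntl, the clock activator BMAL1, read 5.79, 4.86, 4.14, 4.41 and 4.30 in micro ZnO livers, against 6.57, 5.27, 6.52, 6.52 and 4.42 in untreated livers. Untreated replicates 2 and 5 lay with the micro ZnO arrays in both genes. All 13 repressors and output genes had a positive sign with a median of 0.60, and the 5 activators were negative with a median of -0.46. In either list 0 members were called, against 0.0802% of all genes called as higher and 0.01% as lower. The time of day at which livers were taken is not given in the labels, and its part in the other results was not tested.

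The particle-free formulation and the nano ZnO sunscreen place the micro ZnO values beside those of the other sunscreens. Micro ZnO minus formulation gave 0 called probe sets of 23410 (0%), with 1639 at an unadjusted p under 0.05, and micro ZnO minus nano ZnO gave 0 as well (0%), with 1086. Without micro ZnO replicate 2, 41 probe sets were called against formulation. Saa3 was higher by 1.16 against formulation (95% interval -0.07 to 2.38) and by 2.60 against nano ZnO (1.37 to 3.83), with limma adjusted p of 0.747 and 0.979. Its values were 8.45 to 12.96 in micro ZnO livers, 7.22 to 8.83 in nano ZnO livers and 8.23 to 10.73 in formulation livers. Orm2 differed by 0.10 against formulation (-0.30 to 0.50) and by 0.33 against nano ZnO (-0.07 to 0.74), and Sult1e1 by 0.07 (-1.04 to 1.18) and 0.35 (-0.76 to 1.46). S100a8 was 1.26 above formulation (0.45 to 2.06) and 0.78 above nano ZnO (-0.03 to 1.58), with 8.78 in 1 nano ZnO array.

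The smallest p against formulation belonged to Timd4, Hivep2 and Nrp2, each with a limma adjusted p of 0.168. Hivep2 ran from 4.83 to 5.38 in micro ZnO livers, from 3.97 to 4.74 in nano ZnO livers and from 4.28 to 4.70 in formulation livers. Every micro ZnO array was higher than any array of the other pregnant groups. Hivep2 was picked by its small p, so its separation from formulation follows largely from that choice. The share of all genes so separated was not counted. Hivep2 was 0.70 above formulation (95% interval 0.43 to 0.97) and 0.63 above nano ZnO (0.36 to 0.90). Against nano ZnO no probe set passed, and the smallest limma adjusted p was 0.979. Timd4, a phosphatidylserine receptor of resident macrophages, was 0.73 above formulation (0.46 to 1.01), at 5.34 to 6.12 in micro ZnO and 4.77 to 5.05 in formulation livers. Against untreated livers, without micro ZnO replicates 3 and 4, Timd4 gave 0.23 ± 0.12 (limma adjusted p = 0.999). The list of Kupffer cell and macrophage markers had a median change from untreated of 0.21 in micro ZnO and -0.23 in formulation livers. Nrp2, a co-receptor for semaphorins and vascular growth factors, was 0.41 above formulation (0.25 to 0.57). Against untreated livers, without micro ZnO replicates 3 and 4, Nrp2 gave 0.32 ± 0.10 (limma adjusted p = 0.712). The intervals of genes picked by the smallest p are not adjusted for that choice. Rxrg, a retinoid X receptor, was -0.46 against nano ZnO (-0.67 to -0.25, limma adjusted p = 0.979). The 3 genes named against formulation passed when micro ZnO replicate 2 was left out, at limma adjusted p of 0.0347 for Timd4, 0.0363 for Hivep2 and 0.0359 for Nrp2.

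Each sunscreen group was also set against the same 5 untreated arrays, so the values that follow share them. Orm2 differed from untreated by 3.16 in micro ZnO, 2.82 in nano ZnO and 3.06 in formulation livers. Saa1 differed by 4.46, 3.56 and 3.99 in the same order, Mup3 by -1.40, -1.20 and -1.09, and Sult1e1 by 3.09, 2.74 and 3.02. Tlr2 differed from untreated by 1.76 in micro ZnO, 0.38 in nano ZnO and 0.24 in formulation livers, and Cxcl9 by 1.88, 0.35 and -0.26. Without micro ZnO replicates 3 and 4 the micro ZnO changes of Tlr2 and Cxcl9 were 0.17 and 0.26. Of the 23410 probe sets, 25 were called for micro ZnO, 5 for nano ZnO (0.0214%) and 14 for formulation (0.0598%).

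The same sunscreen was given to virgin mice, and the question here was where the response of pregnant mice differed from that of virgin mice. In a joint fit of 8 groups, 11 of 23410 probe sets passed (0.047%), 9 with a higher (0.0384%) and 2 with a lower response in pregnant mice (0.00854%), and 10 of them carry 1 gene symbol. Pregnant and virgin mice belonged to separate experiments, so pregnancy and experiment cannot be told apart, and levels are not compared between them. Saa3 responded by 5.36 ± 0.60 in pregnant and 1.43 ± 0.54 in virgin mice, a difference of 3.92 ± 0.81 (limma adjusted p = 0.0343). In virgin mice it read 5.87, 7.94, 6.25, 7.98, 8.49 and 6.70 in micro ZnO livers, against 5.98, 5.66, 6.34, 6.15, 5.55 and 4.94 in untreated livers, so there the groups overlapped. This difference lost its call in 19 of 31 alternatives, among them the fit without pregnant micro ZnO replicates 3 and 4. Orm2 responded by 3.16 ± 0.29 in pregnant and 3.15 ± 0.26 in virgin mice, and the difference of 0.01 ± 0.39 did not pass.

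Slc39a4 had the smallest p of the difference. It responded by -0.27 ± 0.12 in pregnant and -1.30 ± 0.11 in virgin mice, a difference of 1.03 ± 0.16 (limma adjusted p = 0.00308). In virgin mice all micro ZnO livers, at 6.34 to 6.90, lay below all untreated livers, at 7.75 to 8.22, while in pregnant mice micro ZnO livers at 6.15 to 6.60 overlapped untreated livers at 6.27 to 7.0. Serpinb1a, an inhibitor of neutrophil proteases, responded by 0.42 ± 0.18 in pregnant and -1.0 ± 0.16 in virgin mice (difference 1.42 ± 0.24, limma adjusted p = 0.00444). Ntrk2, the receptor for brain-derived neurotrophic factor, responded by 0.09 ± 0.11 in pregnant and -0.77 ± 0.10 in virgin mice, at low signals of 3.42 to 3.50 in pregnant micro ZnO livers. Slc39a4, Serpinb1a and Ntrk2 kept the call under every alternative in which they could be tested.

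No member of the neutrophil, macrophage or lymphocyte lists differed in response with a call. At 0.047% of all probe sets called, lists of this size would hold few or no calls. Rac2, a GTPase of blood cells, responded by 0.81 ± 0.15 in pregnant and -0.23 ± 0.14 in virgin mice, Lcp1, the leukocyte plastin, by 0.27 ± 0.10 and -0.42 ± 0.09, Ly6e by 0.53 ± 0.14 and -0.53 ± 0.13, and the chemokine gene Cxcl16 by 0.48 ± 0.14 and -0.41 ± 0.13. Without pregnant micro ZnO replicates 3 and 4 these 4 differences no longer passed. In the fit of the pregnant arrays without them, Rac2 gave 0.40 ± 0.15, Lcp1 0.07 ± 0.10, Ly6e 0.26 ± 0.15 and Cxcl16 0.15 ± 0.12. Over all 31 alternatives the call of the difference was lost in 10 for Rac2, 9 for Lcp1, 2 for Ly6e and 20 for Cxcl16. Cyp4a14, a fatty acid omega-hydroxylase and PPARA target, responded by -0.04 ± 0.35 in pregnant and 2.34 ± 0.32 in virgin mice (difference -2.37 ± 0.48, limma adjusted p = 0.0265). In pregnant livers it read 2.86 to 3.12 in micro ZnO and 2.70 to 3.24 in untreated mice, near the low end of the scale. Nim1k, a protein kinase, responded by -0.42 ± 0.08 in pregnant and 0.19 ± 0.08 in virgin mice. The differences of Cyp4a14 and Nim1k also no longer passed without these replicates, and the call was lost in 15 of 31 alternatives for Cyp4a14 and in 1 for Nim1k.

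**Figure D5:**
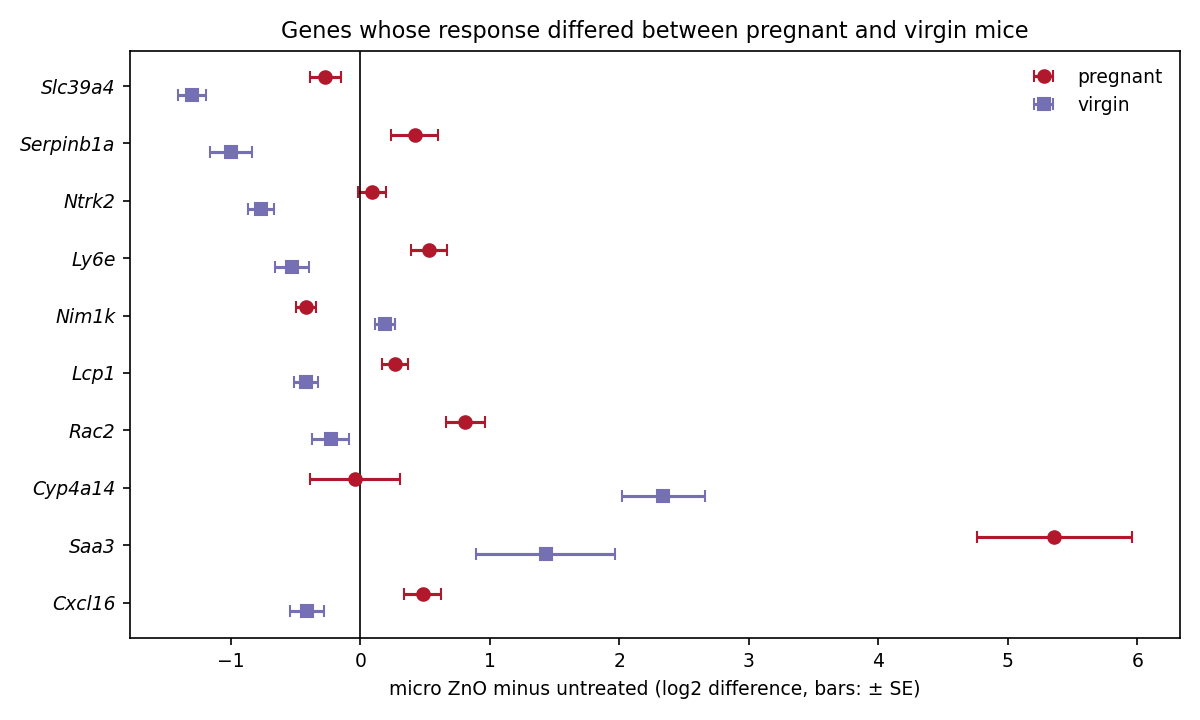
Micro ZnO minus untreated (x axis, log2 difference with bars of ± SE) in pregnant mice (circles) and virgin mice (squares) for the 10 genes whose responses differed. Saa3 responded by 5.36 in pregnant and 1.43 in virgin mice, and Cyp4a14 by -0.04 and 2.34.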

How the data were processed

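Affymetrix whole-transcript arrays measured liver RNA of 46 mice in 8 groups, each mouse on its own array. The authors deposited log2 intensities from RMA, as the submitters' processing notes say without a version. RMA corrects background, equalizes the distribution of arrays and summarizes probes into probe sets, so a change of total RNA is not visible. No detection calls, scan dates or batches were used, and precision is limited by how many arrays each group has. Of 35512 probe sets, 21789 carry 1 gene symbol, 1621 several and 12102 none in the platform annotation. The 23410 with a symbol were tested, and 21698 matched a mouse gene table of GRCm38.p6. A gene is represented by its single-symbol probe set with the highest mean over the 22 pregnant arrays, which gave 19938 genes.

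The groups were fitted in R 4.3.3 with limma 3.58.1 (lmFit and eBayes, two-sided, Benjamini-Hochberg over 23410 probe sets), with 4 group means over the pregnant arrays and with 8 group means for pregnant minus virgin. The fit was also run on simulated arrays with known changes, in which each gene had the same spread in every group. That setting lacks the wider spread of the micro ZnO arrays and does not cover it. Means of groups other than gene tests used an exact permutation test. Gene lists are described by counts and medians with no test. The members and the lists were chosen with earlier results of these data known. Named genes are the called genes (12 largest each way, and the rest of them), 6 zinc genes, up to 6 members of a list described, 10 genes by the SD over micro ZnO arrays and 10 by the excess of that SD over the untreated SD (both among genes above the median mean level), up to 8 genes with the smallest p of each other comparison (3 where none was called), and genes named as chosen after their values were seen. The text prints part of them. Members of the fibrinogen and neutrophil sets named beside a list count were also chosen for what they encode.

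Other settings tried were a filter on dim probe sets (mean signal under the 40th percentile), the whole table of probe sets, an intensity trend with robust moderation, array weights, a further quantile normalization, a change of at least 1.5-fold, only the groups compared, replicate number as a block, the interquartile range as a covariate, micro ZnO replicates 3 and 4 left out together, and each array left out. Promoter windows came from RefSeq on GRCm38.p6. Plots used Python 3.11.15 with matplotlib 3.10.9, pandas 2.3.3 and numpy 2.4.6.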

Additional observations from a re-analysis of the deposited data

Results flagged for a closer look

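Of 148 sets of 5 values searched for an array far from the rest of its group, 7 held one, where chance gives about 1 in 20, or 7.4. One was in micro ZnO and 6 were in untreated livers. Vsig4 was 5.18 in micro ZnO replicate 3, against 6.95 to 7.40 in the other micro ZnO arrays. Untreated replicate 4 had 5.2 for Saa1, against 6.74 to 7.07 in the others, and 9.34 for Ly6e, against 9.86 to 9.94. Untreated replicate 4 also had the highest interquartile range, 3.13, against 3.05 to 3.07. S100a8 was 4.52 in untreated replicate 1, against 5.41 to 5.77. Kdr was 6.69 in untreated replicate 5, against 6.96 to 7.07. That array had 43 genes at least 2-fold from the mean of the other untreated arrays, against 26 to 29. Pairs of high arrays, such as micro ZnO replicates 3 and 4, escape this kind of search.

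The response to micro ZnO differed between pregnant and virgin mice, by the test of the difference in limma, for 10 named genes. The difference, pregnant minus virgin, was 1.03 for Slc39a4, 1.42 for Serpinb1a, 0.85 for Ntrk2, 1.06 for Ly6e, -0.61 for Nim1k, 0.69 for Lcp1, 1.04 for Rac2, -2.37 for Cyp4a14, 3.92 for Saa3 and 0.89 for Cxcl16. The largest adjusted p among them was 0.0398. A probe set with several symbols differed by 2.20 (limma adjusted p = 0.0231).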

How the results depend on the processing

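The 25 calls of micro ZnO minus untreated became 13 with all probe sets, 8 with only the groups compared and 7 without micro ZnO replicates 3 and 4, and leaving out 1 array gave 11 to 138. The 0 calls against formulation became 41 without micro ZnO replicate 2, with 0 to 41 over arrays left out, and against nano ZnO the count was 0 in every alternative run. The 11 calls of pregnant minus virgin became 5 with all probe sets, 5 with only the groups compared and 6 without pregnant micro ZnO replicates 3 and 4, and leaving out 1 array gave 5 to 49. The difference in interquartile range was 0.001 without micro ZnO replicate 3 and ran from -0.049 to 0.001. These settings changed the number of arrays or of probe sets along with the data, and the cause of the moves was not tested.

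Without micro ZnO replicates 3 and 4 the sign turned for Cxcl10 (-0.03), Cyp7a1 (0.30), G6pc (0.06), Il1b (-0.01), Marco (-0.08) and Vsig4 (0.17), and with 1 array left out Vsig4 ran from -0.48 to 0.07 (positive without micro ZnO replicate 3) and Cyp4a14 from -0.12 to 0.02 (positive without untreated replicate 3 or 4). None of these genes was called in micro ZnO minus untreated. Of 1773 values of single genes under alternatives, 1584 kept direction and side of the threshold, 161 lost a call and 19 gained one. Saa1, Saa2, Saa3, Orm1 and Orm2 kept the call in 19 of 19 alternatives, Apcs lost it in 13, Arhgap29 in 13 and Ifitm6 in 14.

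Arrays of the same replicate number did not deviate together (correlations -0.10 to 0.14, and 0 of 5 matched their own number best). Whether a number stands for a shared batch or handling is not given in the labels and was not tested. With replicate number as a block the counts were 20 for micro ZnO minus untreated and 10 for pregnant minus virgin, and Mt2 (0.80, limma adjusted p = 0.0454) and Ppp1r3c (-1.85, adjusted p = 0.00892) passed. A difference that did not pass is not shown to be absent.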

Other observations

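Genes of the respiratory chain and ATP synthase had a negative sign for 36 of 41 members in micro ZnO liver, with a median change of -0.11. Set against the same untreated arrays, the median was -0.12 in nano ZnO and -0.09 in formulation liver. All micro ZnO arrays lay below all untreated arrays for 3 of the 41, against 0.456% of all genes. None was called (0 of 41), against 0.01% of all genes called as lower. The list mean was 0.01, 0.05, -0.26, -0.26 and -0.10 from the untreated mean in micro ZnO replicates 1 to 5, and -0.14 to 0.07 in untreated arrays. Of 16 heat shock chaperones 14 had a positive sign with 0 called, against 0.0802% of all genes called as higher. The mean of the chaperone list was 0.38 and 0.56 in micro ZnO replicates 3 and 4. It was -0.13 to 0.02 in the other micro ZnO arrays and -0.15 to 0.17 in untreated arrays.

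The 20 cholesterol synthesis genes separated micro ZnO replicates 3 and 4, which stood together in acute-phase and chemokine genes. Their list mean was 0.38 in replicate 3 and -0.50 in replicate 4, against 0.14 to 0.19 in the other micro ZnO arrays and -0.24 to 0.46 in untreated arrays. Markers of pancreas and placenta had medians of 0.00 and -0.05 and 0 called of 12 and 8. At 0.107% of all probe sets called, lists this short would hold few or no calls.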
